A study of Sus scrofa with 12 samples.

Results

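Transcripts of basement membrane and fibrillar collagens and of the laminin beta-2 chain were followed in stented pig coronary arteries. The genes were LAMB2, COL4A2, COL15A1, COL3A1, COL1A2, COL4A1, COL5A1 and COL6A3, and their members on the Affymetrix porcine array were all probe sets (groups of short probes that read 1 transcript) whose only gene symbol is one of these 8. Of 24123 probe sets, 13 met this rule and read 7 of the 8 genes (of 6765 genes named in this way on the array), while COL4A1 is the sole symbol of none and was not analysed here. COL5A1 has 6 probe sets, COL1A2 has 2 and each of the other genes has 1. After removal of the dimmest 30% of probe sets, 12 of the 13 were among the 16799 tested, and the other is a COL5A1 probe set described without a test. For counts of genes, each gene was represented by its brightest probe set.

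The animals were Yorkshire farm pigs, and artery tissue was collected 28 days after angioplasty and implantation of 1 of 3 stent types. A zotarolimus-eluting stent (ZES) and a sirolimus-eluting stent (SES) release drugs that inhibit the growth kinase mTOR, and the bare metal stent (BMS) carries no drug. Each type was represented by 4 arrays from 2 pigs, with segments 1 and 2 from one animal and 3 and 4 from the other. Odd-numbered segments are from the right coronary artery, RCA, and even-numbered ones from the left anterior descending artery, LAD, except in the first SES pig, where SES 1 is left circumflex and SES 2 is RCA. The series title says that stents overlapped. Every pig carried 1 stent type, so animal and stent differences are hard to tell apart with 2 pigs per type, and all pigs had been injured by angioplasty and stented, with no unstented artery among them. Drug doses are not stated in the labels.

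Basement membranes are thin sheets of matrix around smooth muscle cells and beneath the endothelium. They are built from a network of laminin trimers and a network of type IV collagen, whose chains COL4A1 and COL4A2 assemble together and whose genes neighbour each other in the pig genome assembly of RefSeq. LAMB2 encodes the beta-2 laminin chain, which is found in the basement membranes of arterial smooth muscle, and COL15A1 encodes a collagen with heparan or chondroitin sulphate chains that links basement membranes to the fibrils next to them. Types I and III collagen, to which COL1A2 and COL3A1 contribute, form the banded fibrils that give the vessel wall its tensile strength. COL5A1 is a minor fibril component that starts fibril assembly, and COL6A3 forms the beaded microfilaments of type VI collagen around cells. In repair after stenting, smooth muscle cells and fibroblasts lay down much of this matrix.

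The arrays were on one scale, and they correlated with each other at 0.769 to 0.882 over all probe sets. The background level of an array, taken as the 95th percentile of 59 control probe sets for absent sequences, averaged 4.72 ± 0.41 with ZES, 4.72 ± 0.54 with SES and 5.51 ± 0.31 with BMS (log2 signal, mean ± SD, n = 4). The 2 kinds of array control moved with the stent type. The spike-in controls lay between 14.60 and 15.91 on ZES arrays, 14.62 and 15.60 on SES arrays and 15.74 and 16.52 on BMS arrays. The difference between the 3' and 5' GAPDH controls lay between 4.15 and 5.09 on ZES arrays, 2.71 and 3.81 on SES arrays and 4.13 and 5.67 on BMS arrays. SES arrays were thus below every BMS array in both controls, and below every ZES array in the GAPDH control. For SES, against BMS and against ZES, the stent type cannot be told apart from what moved these controls. The tissue label was checked against markers of the artery wall: smooth muscle actin, ACTA2, read 13.44 to 16.17 and endothelial PECAM1 read 8.82 to 10.75, both above background on all 12 arrays. The endothelial markers TEK and ERG were above it on all arrays too, but others were not. VWF, CDH5 and TIE1 were each above background on 2 of 4 BMS arrays, and VWF, TIE1 and ESAM on 3 of 4 SES arrays. Fewer cells of a type and less RNA per cell cannot be told apart in such whole-tissue samples.

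The comparison of SES with BMS asks how the sirolimus-eluting stent differs from stenting without a drug. LAMB2 and COL4A2, both basement membrane genes, fell with SES, to 0.186 and 0.243 of their BMS levels. COL15A1 and COL1A2 were lower in mean but did not pass the test. The brightest probe sets of COL3A1, COL5A1 and COL6A3 had intervals across 0, and that of COL3A1 reached 1.91. SES 1 to 3 were far below the BMS arrays, and the LAD segment SES 4 lay close to the BMS arrays for LAMB2, COL4A2, COL15A1 and COL1A2.

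LAMB2 (probe set Ssc.5067.1.S1_at) read 7.36, 7.56, 7.15 and 9.54 on SES 1 to 4, against 10.61, 10.36, 9.71 and 10.65 on BMS 1 to 4 (log2 signal). Every SES array was below every BMS array, by a narrow margin for SES 4, and SES 1 to 3 were more than 2 units below the lowest BMS array. The group means were 7.90 ± 1.10 with SES and 10.33 ± 0.43 with BMS (SD, n = 4), so LAMB2 fell by 2.43 on the log2 scale (SE 0.48, 95% interval -3.44 to -1.41) to 0.186 of the BMS level. This passed in limma with Benjamini-Hochberg adjustment over all 16799 probe sets (adjusted p = 0.0290). SES has 1 LAD segment and BMS has 2, and with the artery as a covariate LAMB2 differed by -2.08 and the call was lost (adjusted p = 0.0946).

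COL4A2 (Ssc.3467.1.S1_at), a chain of the type IV network, read 9.0, 8.93, 9.22 and 11.48 with SES, against 11.72, 11.73, 11.85 and 11.50 with BMS. The BMS arrays lay close together, SES 1 to 3 were far below them, and SES 4 was only just below the lowest of them. The difference was -2.04 ± 0.45 (estimate ± SE, 95% interval -3.0 to -1.09), or 0.243 of the BMS level, and passed narrowly (adjusted p = 0.0471). The call was lost without the block for pig (adjusted p = 0.0569), on means per pig (0.0723), with quantile normalization (0.0545), with median centring (0.0586) and with the artery as a covariate, where the difference was -1.68 (adjusted p = 0.163). The correlation estimated within pigs was slightly negative (-0.0322). The block therefore lowered the SE, to 0.451 from 0.460 without it, and did not make the test stricter.

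COL15A1 (Ssc.19883.1.S1_at), the linker collagen, read 11.59, 11.39, 11.40 and 13.10 with SES, against 12.79, 12.81, 12.86 and 13.68 with BMS. SES 4 lay among the BMS arrays and BMS 4 above all others, so the groups overlapped through SES 4 alone. The difference of -1.17 ± 0.35 (95% interval -1.91 to -0.43) did not pass (adjusted p = 0.123), and adjusting for the array controls left -0.73 (spike-in, adjusted p = 0.874) or -0.36 (GAPDH, adjusted p = 0.847).

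**Figure D1:**
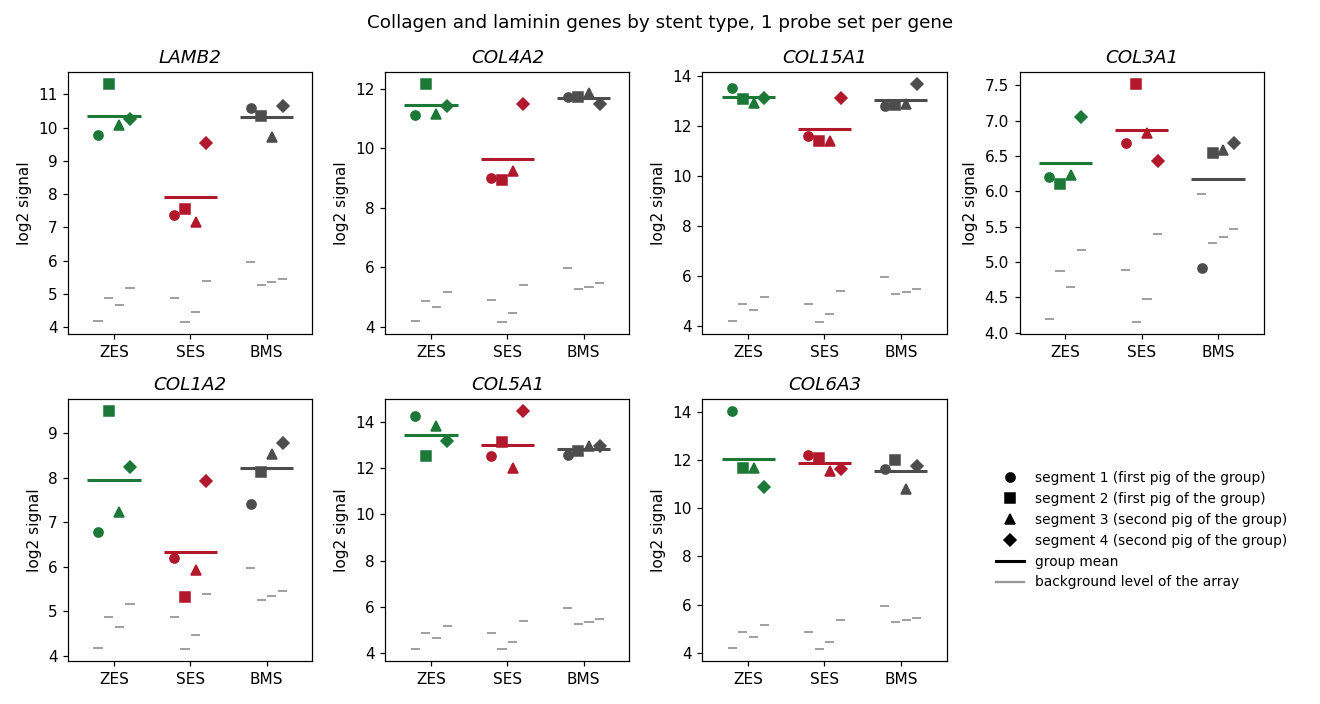
Log2 signal of 7 collagen and laminin genes on each of the 12 arrays (vertical axes), by stent type (ZES, SES, BMS from left to right), with 1 probe set per gene; marker shapes give the segment number, thick bars the group mean and thin grey bars each array's background level. SES 4 (diamond) lies at 9.54 for LAMB2 and 11.48 for COL4A2, above SES 1 to 3, and COL6A3 has its highest value, 14.03, on ZES 1.

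Of the fibrillar collagens, COL1A2, the alpha-2 chain of type I collagen, was lower in mean with SES. Its brighter probe set (Ssc.24975.1.S1_at) read 6.20, 5.33, 5.92 and 7.94 with SES, against 7.41, 8.12, 8.53 and 8.77 with BMS. SES 1 to 3 were below every BMS array and SES 4 was above 1 of them, and the difference of -1.86 ± 0.64 did not pass (adjusted p = 0.180). The second COL1A2 probe set (Ssc.9362.1.A1_at) had the same direction at -1.49 ± 0.85 (adjusted p = 0.445), but it was above background on only 1 of 4 SES arrays and 1 of 4 BMS arrays.

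COL3A1 (Ssc.10754.2.A1_at), the chain of type III collagen, read 6.68, 7.52, 6.83 and 6.43 with SES, against 4.92, 6.54, 6.59 and 6.68 with BMS. BMS 1 was below background and well under the other BMS arrays, which overlapped with the SES arrays. The difference was 0.68 ± 0.58 (95% interval -0.54 to 1.91) and did not pass (adjusted p = 0.628). COL3A1 has no other member probe set, and this one averaged only 6.48 over the arrays, so its differences are poorly known.

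COL5A1, the fibril starter, read 12.52, 13.13, 11.99 and 14.48 with SES, against 12.58, 12.76, 12.98 and 12.99 with BMS, on its brightest probe set (Ssc.9002.1.A1_at). The SES arrays spanned the BMS arrays on both sides, with SES 4 the brightest of the 8, and the difference was 0.20 ± 0.43 (95% interval -0.71 to 1.12, adjusted p = 0.868). The next brightest (Ssc.4993.1.A1_at) gave 0.075 ± 0.32 (adjusted p = 0.943), and these are the 2 COL5A1 probe sets that were above background on all 12 arrays. The dimmer ones disagreed, with 0.045 for Ssc.18545.1.A1_at, -1.03 for Ssc.16329.1.A1_at and -2.27 for Ssc.16329.1.S1_at, and none passed (adjusted p between 0.296 and 0.987). They were above background on 9, 8 and 6 of the 12 arrays. The COL5A1 probe set that was removed for low values (Ssc.31199.1.S1_at) was above background on 5 arrays and differed by -0.59, which was not tested.

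COL6A3 (Ssc.16589.1.S1_at), of the type VI microfilaments, read 12.21, 12.07, 11.53 and 11.65 with SES, against 11.62, 12, 10.80 and 11.76 with BMS. The groups overlapped over most of their range, and the difference was 0.32 ± 0.49 (95% interval -0.71 to 1.35, adjusted p = 0.806).

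In all, 2 of the 12 tested probe sets passed between SES and BMS, LAMB2 and COL4A2, both lower, and neither passed with the artery or either array control as a covariate. Over all probe sets, 0.679% passed in either direction and 0.185% passed as lower (114 and 31 of 16799). The same 2 had every SES array below every BMS array, as did 4.51% of all probe sets. Of the 12 differences 5 were positive and 7 negative, with a median of -1.10, and 5 had an unadjusted p under 0.05. Over all 16799 probe sets, 2408 had an unadjusted p under 0.05 in limma. By gene, 3 of 7 were higher and 4 lower, with a median of -1.17, where 5793 genes had a median of -0.0064 and 50.5% were lower.

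**Figure D2:**
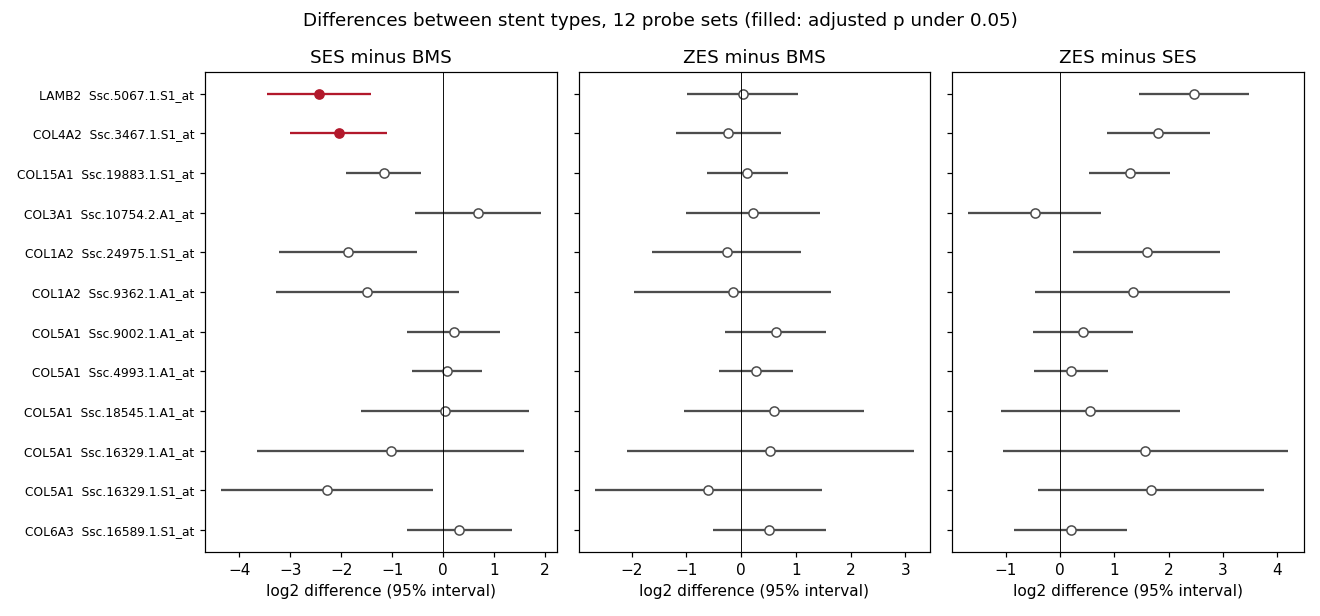
Differences in log2 signal between stent types (horizontal axes, with 95% intervals) for the 12 tested probe sets, one per line, for SES minus BMS, ZES minus BMS and ZES minus SES from left to right; filled points passed at an adjusted p under 0.05. LAMB2 at -2.43 and COL4A2 at -2.04 are the filled points, all for SES minus BMS.

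For the zotarolimus-eluting stent the question against BMS is the same. None of the 7 genes differed detectably between ZES and BMS. In limma, 0 of the 12 probe sets passed and 0 had an unadjusted p under 0.05, where 0% of all probe sets passed and 1510 had an unadjusted p under 0.05. LAMB2 read 9.78, 11.32, 10.09 and 10.27 on ZES 1 to 4, against the BMS values of 9.71 to 10.65 given above. ZES 2 was above every BMS array and the other ZES arrays lay among them, with a difference of 0.033 ± 0.48 (95% interval -0.98 to 1.05, adjusted p = 0.986).

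COL4A2 read 11.14, 12.17, 11.16 and 11.41 with ZES, against 11.50 to 11.85 with BMS. ZES 1, 3 and 4 were below the BMS arrays and ZES 2 above them, and the difference was -0.23 ± 0.45 (95% interval -1.18 to 0.72, adjusted p = 0.920). COL15A1 read 13.52, 13.06, 12.91 and 13.11 with ZES, against 12.79 to 13.68 with BMS, with a difference of 0.11 (95% interval -0.63 to 0.85, adjusted p = 0.948).

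COL1A2 read 6.78, 9.50, 7.24 and 8.25 with ZES, against 7.41 to 8.77 with BMS. ZES 2 was above and ZES 1 and 3 below all BMS arrays, and the gene differed by -0.26 ± 0.64 (adjusted p = 0.935). COL3A1 read 6.20, 6.10, 6.23 and 7.05 with ZES, against 4.92 to 6.68 with BMS, a difference of 0.22 (adjusted p = 0.940). The second probe set of COL1A2 differed by -0.15 (adjusted p = 0.973), but was 0.17 after quantile normalization and 0.0056 after median centring.

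COL5A1 read 14.27, 12.55, 13.83 and 13.17 with ZES, against 12.58 to 12.99 with BMS, so ZES 1, 3 and 4 were above every BMS array and ZES 2 below them. Its difference of 0.63 ± 0.43 (95% interval -0.29 to 1.55) had the smallest adjusted p of the 12, at 0.694. The other tested COL5A1 probe sets differed by 0.27 (Ssc.4993.1.A1_at), 0.60 (Ssc.18545.1.A1_at), 0.54 (Ssc.16329.1.A1_at) and -0.60 (Ssc.16329.1.S1_at), none of which passed, and the untested one by 0.71. COL6A3 read 14.03, 11.67, 11.68 and 10.86 with ZES, against 10.80 to 12 with BMS. Only ZES 1 stood above the BMS arrays, and the difference of 0.51 ± 0.49 (adjusted p = 0.793) turned to -0.14 without that array.

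Set side by side, ZES and SES differed most in the genes that were low with SES. LAMB2 was 2.46 ± 0.48 higher with ZES than with SES (95% interval 1.45 to 3.48), and every ZES array was above every SES array, but this missed the threshold (adjusted p = 0.0544). COL4A2 differed by 1.81 ± 0.45 (adjusted p = 0.139), COL15A1 by 1.28 ± 0.35 (adjusted p = 0.186, and 0.57 after adjusting for the GAPDH control) and COL1A2 by 1.60 ± 0.64 (adjusted p = 0.402). For the last 3 genes SES 1 to 3 were below all ZES arrays and SES 4 was not.

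For COL3A1 (-0.47), COL5A1 (0.43) and COL6A3 (0.19) ZES and SES differed by less than 1 SE. The second COL1A2 probe set differed by 1.34 and the 4 other tested COL5A1 probe sets by 0.20 to 1.68, with 0 passing. Of the 12 probe sets 11 were higher with ZES, with a median difference of 1.31, but COL5A1 and COL1A2 count more than once among them. By gene, 6 of 7 were higher, with a median of 1.28, where 5793 genes had a median of 0.0099 and 49.5% were lower. In limma 0 of the 12 passed and 4 had an unadjusted p under 0.05. Over all probe sets 0.0714% passed (12 of 16799) and 1686 had an unadjusted p under 0.05. Only LAMB2 had every SES array below every ZES array, as did 2.94% of all probe sets. SES arrays enter both this comparison and that with BMS, so the 2 sets of differences share those samples.

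SES 4 stood apart from the other SES arrays in most of these genes. It exceeded the mean of SES 1 to 3 by 2.18 for LAMB2, 2.43 for COL4A2, 1.64 for COL15A1, 2.12 for COL1A2 and 1.94 for the brightest COL5A1 probe set, and differed from it by -0.58 for COL3A1 and -0.29 for COL6A3. Without SES 4, COL4A2 differed from BMS by -2.65 (limma, adjusted p = 0.000657), LAMB2 by -2.97 (adjusted p = 0.00180) and COL15A1 by -1.58 (adjusted p = 0.00860), so COL15A1 then passed. COL1A2 reached -2.40 (adjusted p = 0.0527). Against ZES, LAMB2 (3.00), COL4A2 (2.42) and COL15A1 (1.69) all passed without SES 4 (adjusted p = 0.00260, 0.00260 and 0.00962). Whole-table counts moved with it, to 415 probe sets for SES against BMS and to 158 for ZES against SES. SES 4 is the only LAD segment of SES, so leaving it out makes stent type and artery less balanced still.

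The other SES arrays bore on the calls in the opposite way. Without SES 3, LAMB2 differed by -2.18 (adjusted p = 0.153) and COL4A2 by -1.90 (adjusted p = 0.210), and 0 of 16799 probe sets passed (1765 at an unadjusted p under 0.05). LAMB2 also lost its call without SES 1 (adjusted p = 0.0960), SES 2 (adjusted p = 0.0852), BMS 1 (adjusted p = 0.0754) or BMS 2 (adjusted p = 0.0638). COL4A2 kept its call when SES 4 or ZES 4 was left out and lost it without any other single array, with adjusted p between 0.0528 and 0.210. As a covariate, the spike-in level left LAMB2 differing by -1.77 (adjusted p = 0.793) and COL4A2 by -1.35 (adjusted p = 0.831). The GAPDH difference as a covariate gave -2.16 (adjusted p = 0.478) for LAMB2 and -2.04 (adjusted p = 0.476) for COL4A2. Both genes were lower with SES under all 22 alternatives, and the test was passed by LAMB2 in 14 and by COL4A2 in 5.

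**Figure D3:**
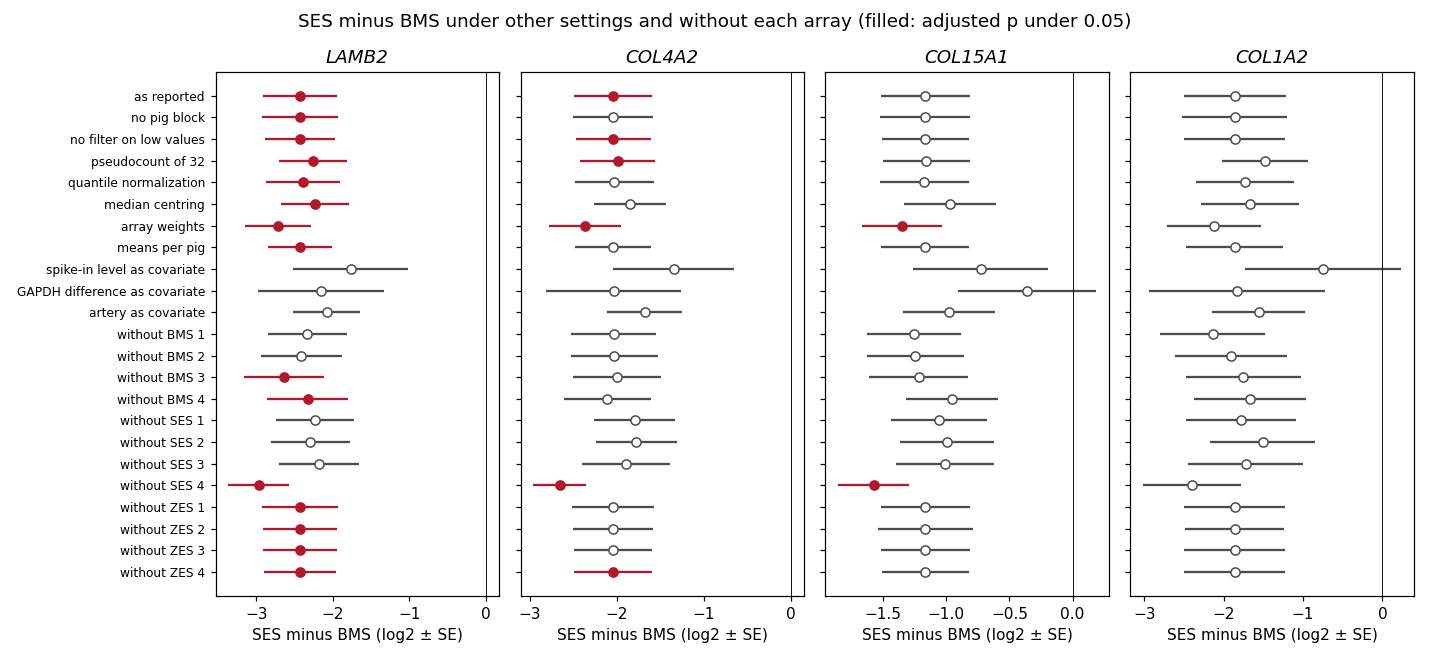
SES minus BMS in log2 signal with its standard error (horizontal axes) for LAMB2, COL4A2, COL15A1 and COL1A2, as reported and under 22 alternatives (lines, from top to bottom); filled points passed at an adjusted p under 0.05. All points lie below 0, from -2.97 to -1.77 for LAMB2 and from -2.65 to -1.35 for COL4A2, and their standard errors grow with either array control as a covariate.

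Smooth muscle markers moved with these genes across the arrays. Of 10 listed markers 8 were tested, and their mean was 9.70, 9.50, 9.95 and 12.40 on SES 1 to 4, against 13.15, 12.88, 12.10 and 12.20 on BMS 1 to 4. SES 1 to 3 were low and SES 4 lay among the BMS arrays, as for COL15A1, whereas for LAMB2 and COL4A2 SES 4 was just below the lowest BMS array. All 8 had lower means with SES than on BMS arrays, their median difference was -1.92, and 0 passed in limma, with 7 at an unadjusted p under 0.05 (2408 of all 16799 probe sets). On the ZES arrays the mean was 10.46, 13.56, 12.55 and 12.84, so ZES 1 was low as well. ZES 1 read 9.78 for LAMB2, 11.14 for COL4A2, 13.52 for COL15A1 and 6.78 for COL1A2. The highest of SES 1 to 3 read 7.56, 9.22, 11.59 and 6.20. COL4A2 and COL1A2 on ZES 1 were below every BMS array, and LAMB2 and COL15A1 lay among the BMS arrays. Between 7 and 8 of the 8 markers were above background on every array, and none was listed at 0. The part of smooth muscle content in the differences was not tested.

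**Figure D4:**
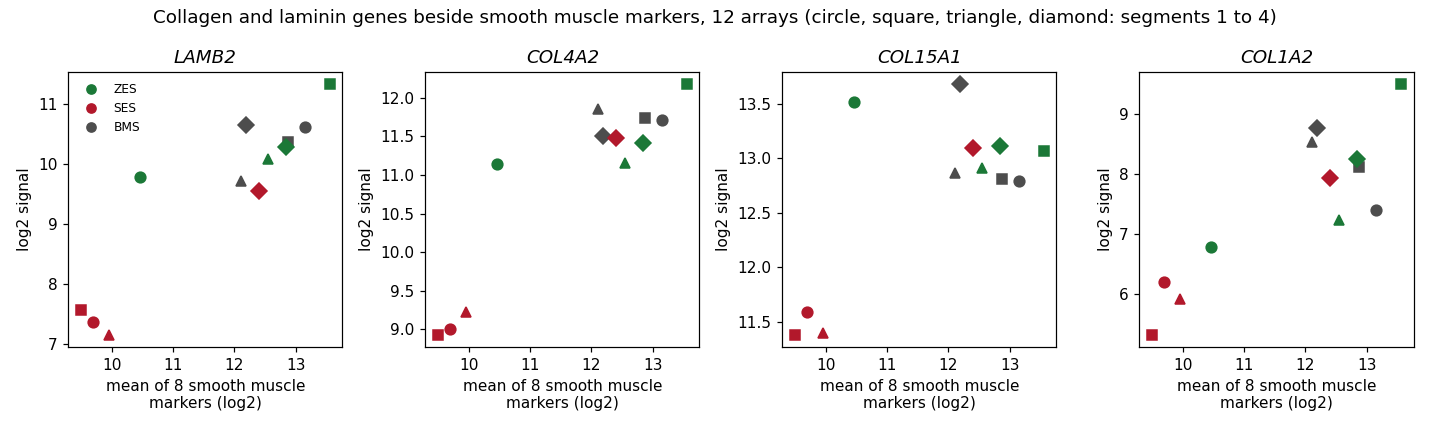
Log2 signal of LAMB2, COL4A2, COL15A1 and COL1A2 (vertical axes) against the mean log2 signal of 8 smooth muscle markers (horizontal axes) on the 12 arrays, coloured by stent type (ZES, SES, BMS), with marker shapes for segments 1 to 4. SES 1 to 3 sit at the lower left with marker means of 9.50 to 9.95, and SES 4 at 12.40 sits with the BMS arrays. ZES 1 has a low marker mean of 10.46, with a COL15A1 signal of 13.52 and a COL1A2 signal of 6.78.

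Of the markers of other cell types, 1 gene passed between SES and BMS. The mean of 5 T cell markers was 6.19 to 7.62 on SES arrays and 4.47 to 5.48 on BMS arrays, and CD3E, which encodes a subunit of the receptor that T cells sense antigen with, was above background on all 4 SES arrays and on 0 of 4 BMS arrays. CD3E was the gene that passed in limma, as higher with SES, and the neutrophil, macrophage, fibroblast, endothelial, heart muscle and adipocyte markers had 0 calls between any stent types (3, 2, 2, 3, 1 and 0 at an unadjusted p under 0.05 for SES against BMS). The mean of 3 neutrophil markers was 7.40 to 12 with SES and 4.34 to 8.10 with BMS, and that of 5 macrophage markers 9.52 to 10.51 and 8.94 to 10.45. Heart muscle markers, listed to gauge tissue from beside the artery, averaged 6.19, 3.91, 4.91 and 8.73 on SES 1 to 4 and 5.45 to 8.05 on BMS arrays over 4 genes, with TNNI3 at 0 on 1 array. SES 4 was thus the highest SES array in heart muscle markers and the lowest in T cell and neutrophil markers. Of the heart muscle markers PLN alone was above background on every array, and it differed by -2.75 between SES and BMS. MYH7, ACTN2 and TNNI3 differed by -0.22, 0.11 and -1.09, so the markers did not move alike. Fibroblast markers, of cells that lay down this matrix along with smooth muscle cells, averaged 11.17 to 12.04 with ZES, 11.25 to 12.15 with SES and 11.34 to 11.84 with BMS over 7 genes. Endothelial markers averaged 7.85 to 8.61 with ZES, 7.37 to 8.17 with SES and 6.96 to 7.44 with BMS, also over 7 genes, and adipocyte markers 7.79 to 9.07, 8.27 to 9.51 and 8.26 to 9.24 over 3 genes. The part of these cells in the differences was not tested.

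The LAD and the RCA of the same animal were compared in the 5 pigs with both. COL1A2 was brighter in the LAD of 5 of 5 pigs, by 2.71 and 1.01 in the ZES pigs, 2.02 in the SES pig and 0.72 and 0.24 in the BMS pigs on its brighter probe set. The mean difference of 1.34 ± 0.48 did not pass (limma with the pig as a block, adjusted p = 0.721), and the second COL1A2 probe set differed by -0.32. LAMB2 was higher in the LAD of 4 of 5 pigs, by 1.54 and 0.19 with ZES and 2.39 with SES, against -0.25 and 0.94 with BMS, with a mean of 0.96 ± 0.39 (adjusted p = 0.723). COL4A2 was higher in 4 of 5 pigs, with a mean of 0.64 (adjusted p = 0.746), and its largest value, 2.26, was that of the SES pig, the animal of SES 3 and SES 4. In the same pig COL15A1 was 1.70 higher in the LAD, against between -0.46 and 0.81 in the others. COL3A1 (0.41), the brightest COL5A1 probe set (0.059) and COL6A3 (-0.35) had mean differences under 1 SE. No probe set passed in limma, 0% of 16799, and 1153 had an unadjusted p under 0.05. Stent type and artery are not balanced for SES, whose only LAD segment is SES 4.

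Other matrix genes were read from 6 lists, and 1 of their members passed. Of 5 tested laminin and other basement membrane genes besides LAMB2 and COL4A2, all 5 had lower means with SES than on BMS arrays, with a median difference of -0.92, and 0 passed in limma, with 3 at an unadjusted p under 0.05 (2408 of all 16799 probe sets). The 5 were lower under quantile normalization, median centring and without SES 4 as well. SPARC, a collagen-binding matrix glycoprotein, read 16.70, 16.40, 16.44 and 17.09 with SES, against 18.05, 17.33, 17.96 and 17.86 with BMS. The groups did not overlap, and 4.51% of all probe sets likewise had every SES array below every BMS array. The difference of -1.14 ± 0.28 missed the threshold (adjusted p = 0.0697), which it passed in 4 of 22 alternatives. It was -0.032 with quantile normalization (adjusted p = 0.930), and adjusting for the array controls left -0.17 (spike-in, adjusted p = 0.942) or -0.73 (GAPDH, adjusted p = 0.642). LAMC1, the gamma-1 chain that pairs with LAMB2 in laminins, differed by -0.92 ± 0.39 (adjusted p = 0.286), and LAMB1, the beta-1 chain that can take the place of LAMB2, by -0.27 ± 0.39 (adjusted p = 0.798). For ZES against BMS the list had 3 higher and 2 lower members with a median of 0.11, with SPARC at -0.81 (adjusted p = 0.424) and LAMB1 at 0.65 (adjusted p = 0.651).

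Of 7 other collagens, 3 were higher and 4 lower with SES than with BMS, a split that became 5 higher and 2 lower with median centring. COL5A3, a further type V chain, read 9.62, 9.44, 9.65 and 9.75 with SES, against 8.01, 7.76, 6.19 and 8.81 with BMS. Every SES array, SES 4 included, was above every BMS array, a pattern whose share over all probe sets was not computed. The difference of 1.92 ± 0.61 did not pass (adjusted p = 0.150). COL7A1, of anchoring fibrils, had the largest difference of these 7 for ZES against BMS, 2.61 ± 1.09 (adjusted p = 0.498), with BMS 2 below background at 2.38. COL6A2, a partner of COL6A3 in type VI collagen, differed from BMS by 0.49 with ZES and by -0.038 with SES. COL2A1, the cartilage collagen, was above background on 1 SES array and 2 BMS arrays and differed by -1.53 (adjusted p = 0.562), and COL11A1, of type XI collagen, differed by 0.23 (adjusted p = 0.931).

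Genes that process, bind and degrade collagen gave 1 call. TIMP1, an inhibitor of matrix metalloproteases, read 13.91, 14.45, 13.98 and 14.43 with SES, against 12.63, 13.15, 12.52 and 12.76 with BMS. Every SES array was above every BMS array, a pattern whose share over all probe sets was not computed. TIMP1 rose by 1.43 ± 0.29 (adjusted p = 0.0336). It was higher in all 22 alternatives and passed in 13, and its call was lost without SES 3 (1.5, adjusted p = 0.138), SES 2 (1.34, 0.102), SES 1 (1.52, 0.0813), BMS 3 (1.34, 0.0798) or BMS 1 (1.39, 0.0779), on means per pig (1.43, 0.0695) and with the artery (1.5, 0.107) or either array control as a covariate (0.89, 0.820, for the spike-in level and 1.52, 0.413, for GAPDH). CTSK, a collagen-degrading cysteine protease, read 11.11, 11.20, 10.93 and 11.60 with SES, against 12.29, 12.19, 12.24 and 12.80 with BMS. Its groups did not overlap either, with every SES array below every BMS array, as for 4.51% of all probe sets. The difference of -1.17 ± 0.27 missed the threshold (adjusted p = 0.0569), which it passed in 5 of 22 alternatives. Adjusting for the array controls left -0.63 (spike-in, adjusted p = 0.854) or -0.66 (GAPDH, adjusted p = 0.651). TIMP2, a further inhibitor, differed by -1.15 (adjusted p = 0.172) and the gelatinase MMP9 by 1.71 with SES (adjusted p = 0.387) and 2.39 with ZES (adjusted p = 0.446). Over the 12 tested degradation genes 5 were higher and 7 lower with SES, which became 7 and 5 with median centring.

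Among 16 collagen processing and crosslinking genes, 5 were higher and 11 lower with SES (7 and 9 with median centring), the median difference from BMS was -0.23 and 0 passed in limma (2 at an unadjusted p under 0.05). P4HA2, a subunit of the prolyl hydroxylase that stabilises the triple helix, differed by 0.93 ± 0.38 (adjusted p = 0.262) and SEC24D, of the vesicle coat that exports procollagen, by 1.16 ± 0.51 (adjusted p = 0.307). In both genes every SES array was above every BMS array, by a narrow margin, a pattern whose share over all probe sets was not computed. PLOD1, a lysyl hydroxylase, and FKBP14, a collagen chaperone, differed with ZES by 0.99 (adjusted p = 0.600) and 0.71 (adjusted p = 0.632). All 4 tested receptors were lower with SES, with a median of -0.72, but 2 were higher with quantile normalization and 1 with median centring. SGCD, a sarcoglycan of the complex that ties muscle cells to laminin, differed by -1.63 ± 0.56 (adjusted p = 0.183) and DDR1, a collagen receptor kinase, by -1.05 ± 0.54 (adjusted p = 0.394). ITGB1, the beta-1 integrin chain, differed by -0.0018, and RPSA, named as a laminin receptor, by -0.40.

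All 5 tested small leucine-rich proteoglycans, which bind collagen fibrils, were lower with SES (median -0.57) and with ZES (median -0.57) than with BMS, and 0 passed in either comparison (1 at an unadjusted p under 0.05 in each). With median centring 4 of the 5 were lower with SES. BGN, biglycan, differed by -1.0 ± 0.40 (adjusted p = 0.250) and ASPN, asporin, by -0.90 with SES, whereas LUM, lumican, differed by -1.04 ± 0.42 with ZES (adjusted p = 0.488) and by -0.16 with SES. PRELP, which binds basement membranes to collagen, differed by -0.57 with ZES and -0.20 with SES.

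**Figure D5:**
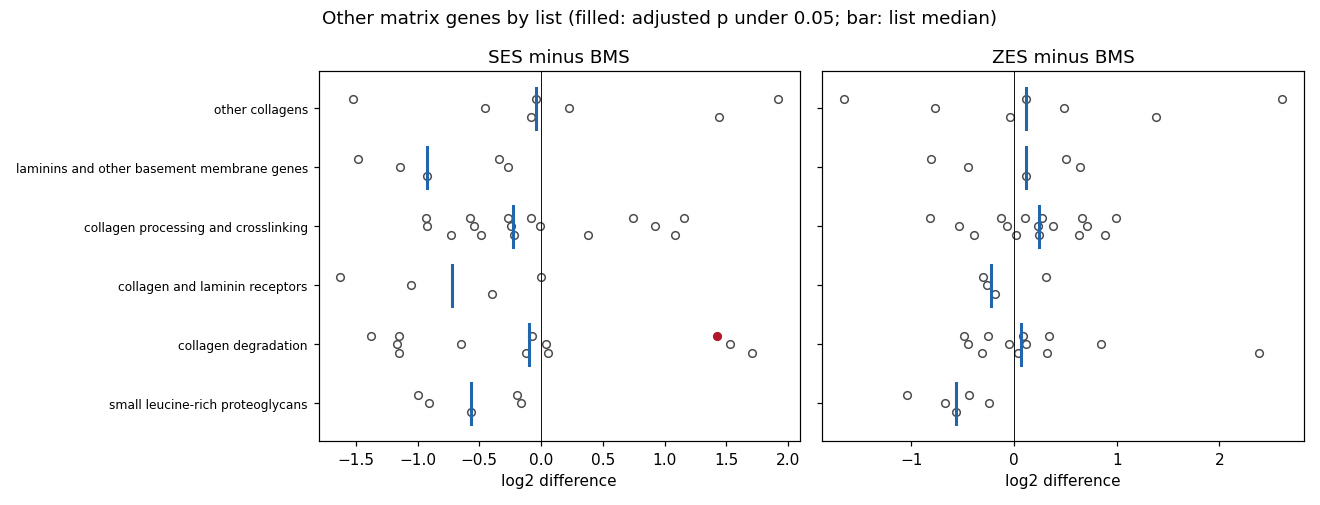
Differences in log2 signal from BMS (horizontal axes) for SES (left) and ZES (right) of the genes on 6 matrix lists (lines), 1 point per tested gene, with blue bars at the list medians; filled points passed at an adjusted p under 0.05. TIMP1 at 1.43 is the filled point, and the 5 basement membrane genes all lie below 0 for SES.

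The 7 genes were not alike in how they varied over the arrays. LAMB2 and COL4A2 had the closest profiles, with a Pearson r of 0.95 over 12 arrays, and 0.88 after each group's mean was taken out. LAMB2 had r of 0.88 with COL15A1 and 0.87 with the brighter COL1A2 probe set, 0.23 with the brightest COL5A1 probe set, -0.12 with COL6A3 and -0.53 with COL3A1. The points share the 12 arrays and their scaling, and SES 1 to 3 lie at one end for the first 4 genes. Among 5786 other genes, those most like LAMB2 were ERI3 (r of 0.976), EXT1 (0.974) and MARVELD1 (0.968). For COL4A2 they were MARVELD1 (0.983), EXT1 (0.973) and COASY (0.959), and for COL15A1 ELMO3 (0.913), THBS2 (0.902) and COASY (0.882). COL1A2 was most like HYI (0.928), MARVELD1 (0.925) and CASTOR1 (0.906). COL3A1 was most like DLG5 (0.931), GATAD2A (0.904) and RAB1A (0.902), COL5A1 most like FAM3C (0.856), FAT1 (0.842) and TFIP11 (0.828), and COL6A3 most like CPSF6 (0.938), SRSF11 (0.889) and DYRK1A (0.838).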

How the data were processed

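Biotin-labelled cDNA from 12 stented artery segments of 6 pigs was hybridised to 1 Affymetrix porcine array each. The authors deposited log2 signals, for which the submitters' processing notes name Affymetrix Expression Console 5.0 and MAS5. That the scale is log2 was read from the deposited values: on every array the linear signals, less 2% at either end, average 500.15 to 500.17. The scaling target and the handling of low signals are not given in the labels. A value of 0, held by 41 to 1153 probe sets of an array, is a floor.

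The deposited log2 values were tested as they stand (pseudocount 0). Control probe sets (124) and then the 30% with the lowest mean were left out. Gene names came from the platform annotation, which can be old: 10069 probe sets have 1 symbol and 198 have several, which were not named. Stent types were compared in limma 3.58.1 (R 4.3.3, statmod 1.5.0), in 1 model of the 12 arrays with a random effect of pig (consensus correlation -0.0322) and a variance trend. Two-sided p-values were adjusted over every probe set tested (Benjamini-Hochberg), with a threshold of 0.05 and intervals at 95%. The LAD and the RCA were compared within pigs, by a fixed term for each pig. The procedure was run on simulated data with independent normal noise on each array. That simulation had no pig effect and no shift of the array controls, so it cannot gauge those limits.

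All member probe sets are named, as are list genes past the threshold or among the 2 smallest p per list and comparison, and the 3 genes most like each member by Pearson r. The members and lists were chosen with earlier results of these data known, so no pattern here is independent support. The alternatives were the block, filter, pseudocount (32), scaling, array weights, means per pig, both array controls as covariates and each array or pig left out. After seeing the data, quantile normalization, median centring and leaving out SES 4 were applied to the list directions, all alternatives to TIMP1, CTSK and SPARC, and the artery (LAD, RCA or left circumflex, which only SES 1 has) was added as a covariate. Precision is limited by how few arrays and pigs there are.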

Additional observations from a re-analysis of the deposited data

Results flagged for a closer look

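In groups of 4 arrays, an array was set apart where its gap to the nearest other array was over Dixon's 95% critical share of the group's range. For normally spread values chance alone does this in about 1 in 20 groups, and here it held in 7 of the 39 groups looked at (13 probe sets in 3 stent types). The groups share arrays and genes with like profiles, so they are not independent and the 7 cannot be set against that rate. The share over all probe sets was not computed. SES 4 was the highest of its group for LAMB2 at 9.54 (the others between 7.15 and 7.56), for COL4A2 at 11.48 (8.93 to 9.22) and for COL15A1 at 13.10 (11.39 to 11.59). BMS 4 was set apart for COL15A1 at 13.68, where the other BMS arrays lay between 12.79 and 12.86. COL3A1 had a low value of 4.92 on BMS 1 (6.54 to 6.68 on the others) and a high one of 7.05 on ZES 4 (6.10 to 6.23). The dim COL5A1 probe set Ssc.18545.1.A1_at read 4.03 on BMS 1, below that array's background, against 5.87 to 6.12 on the other BMS arrays.

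The LAD minus the RCA went opposite ways in every ZES pig and every BMS pig for 2 of 13 probe sets. With 2 pigs per type, signs alone fall this way easily, and the share over all probe sets was not computed. For COL6A3 it averaged -1.59 in ZES pigs and 0.67 in BMS pigs, which differ by -2.26. For the brightest COL5A1 probe set it averaged -1.19 in ZES pigs and 0.088 in BMS pigs, which differ by -1.27. The BMS pigs read 0.17 and 0.0054 there, so their direction is hardly known. These differences were not tested.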

How the results depend on the processing

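No paired analysis was possible because the labels give no replicate numbers that stent types share, and each pig carried 1 stent type. The artery was therefore added as a covariate, after seeing the data. For SES minus BMS, 114 probe sets passed as reported, 183 without the filter, 199 with the pseudocount, 673 with array weights, 64 on means per pig, 7 with the artery covariate, 0 with the spike-in covariate and 0 with the GAPDH covariate (1013 and 1533 at an unadjusted p under 0.05 in limma), and 0 to 415 with 1 array left out. ZES minus BMS gave 0 as reported, 3 without the filter and 0 to 4 with 1 array left out. ZES minus SES gave 12 as reported, 48 without the filter, 47 with the pseudocount, 306 with array weights, 6 without the pig block, 6 with quantile normalization, 6 with median centring, 4 on means per pig, 4 with the artery covariate, 5 with the spike-in covariate, 0 with the GAPDH covariate and 0 to 158 with 1 array left out. The LAD and the RCA gave 0 under all alternatives. LAMB2, SES minus BMS, missed the threshold at -2.08 with the artery covariate, -1.77 with the spike-in covariate and -2.16 with the GAPDH covariate, and ranged from -2.97 to -2.18 with 1 array left out. COL4A2 missed it at -2.04 without the pig block, -2.03 with quantile normalization, -1.85 with median centring, -2.04 on means per pig, -1.68 with the artery covariate, -1.35 with the spike-in covariate and -2.04 with the GAPDH covariate, and ranged from -2.65 to -1.78 with 1 array left out. Median centring moved the median of all tested probe sets from -0.020 to 0.17 for SES minus BMS and from -0.014 to 0.14 for ZES minus BMS. Signs that turned were those of differences that had not passed. For SES minus BMS, COL6A3 turned to -1.28 with the spike-in covariate, the second COL1A2 probe set to 0.091 with the GAPDH covariate, COL5A1 Ssc.9002.1.A1_at to -0.029 with array weights and ranged from -0.27 to 0.55 with 1 array left out, and Ssc.4993.1.A1_at ranged from -0.11 to 0.22. Ssc.18545.1.A1_at turned to -0.23 with array weights, -0.43 with the GAPDH covariate and ranged from -0.45 to 0.42 with 1 array left out, and Ssc.16329.1.A1_at to 0.99 with the spike-in covariate and 0.69 with the GAPDH covariate. For ZES minus BMS, the spike-in covariate turned COL4A2 to 0.35, COL6A3 to -0.81, both COL1A2 probe sets to 0.65 and 0.37, and Ssc.16329.1.S1_at to 0.96. Array weights turned LAMB2 to -0.043 and the pseudocount turned Ssc.16329.1.A1_at to -0.12. The second COL1A2 probe set turned to 0.17 with quantile normalization, 0.0056 with median centring and 0.036 with the GAPDH covariate. With 1 array left out, these ranged across 0: LAMB2 from -0.29 to 0.23, COL3A1 from -0.21 to 0.39, COL6A3 from -0.14 to 0.94, COL15A1 from -0.0085 to 0.33, COL1A2 from -0.79 to 0.13 and from -0.39 to 0.090 on its second probe set, and Ssc.16329.1.A1_at from -0.94 to 1.26. For ZES minus SES, COL6A3 turned to -0.084 with array weights, -0.27 with the GAPDH covariate and ranged from -0.46 to 0.62 with 1 array left out. Ssc.4993.1.A1_at turned to -0.31, Ssc.9002.1.A1_at to -0.038 and the second COL1A2 probe set to -0.054 with the GAPDH covariate, and Ssc.4993.1.A1_at ranged from -0.022 to 0.41 with 1 array left out. For LAD minus RCA, Ssc.9002.1.A1_at turned to -0.027 with quantile normalization, -0.048 with median centring and ranged from -0.55 to 0.50 with 1 pig left out. Ssc.4993.1.A1_at turned to -0.035 with median centring and ranged from -0.13 to 0.30 with 1 pig left out, Ssc.16329.1.A1_at from -2.23 to 0.14 and COL6A3 from -0.67 to 0.16. The causes were not tested. With 2 pigs per stent type, the tests rest mainly on the spread between segments, and probe sets near background have poorly known differences.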
